A study of Mus musculus and Homo sapiens with 24 samples.

Results

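TET2 knockout K-562 cells carrying a short hairpin RNA against *MBD6* (KO shMBD6) were compared with wild-type K-562 cells carrying a control hairpin (WT shControl), to ask how far the doubly perturbed cells stood from the unperturbed ones and which genes were back at the control level. The comparison took every gene in the count files of the 3 libraries of each group, 6 of the 24 libraries of the series. K-562 is an established erythroid-like leukaemia line from a patient with chronic myeloid leukaemia in blast crisis. Hairpins were delivered by lentivirus and cells were selected with puromycin, so both groups had been transduced and selected. The WT and TET2-/- lines were obtained from another laboratory, it is not stated whether each is a single clone, and 1 construct against *MBD6* is named. The genotype therefore cannot be told apart from the cell line that carries it, nor the loss of *MBD6* from other effects of its hairpin. TET2 KO cells with the control hairpin (KO shControl) and WT cells with the *MBD6* hairpin (WT shMBD6), 3 libraries each, served to place the genes.

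TET2 is a dioxygenase that oxidises 5-methylcytosine, known for its action on DNA and also active on RNA, and its gene is often mutated in myeloid leukaemia. MBD6 carries a methyl-CpG-binding domain and joins the PR-DUB complex, in which BAP1 and ASXL proteins remove ubiquitin from histone H2A on chromatin. The polycomb complex PRC1 places that ubiquitin, a mark of repressed genes. The study proposed that MBD6 reads 5-methylcytosine on chromatin-bound RNA. In K-562 it reported that *MBD6* knockdown undid the excess of chromatin-bound RNA seen after TET2 knockout, but not that of whole-cell RNA. It also reported a notable overlap of genes raised by TET2 knockout with genes that *MBD6* knockdown lowered in TET2-depleted K-562. Such an overlap does not ask for a return to the control level, as the counts of returning genes below do. The libraries here are labelled mRNA, so the levels below describe that RNA and do not test the proposal.

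The 6 libraries held 27625013 to 39877202 gene counts. Levels below are CPM, the counts of a gene as a share of its library after TMM normalisation, differences are log2 fold changes from edgeR, and a gene is called when its adjusted p-value is under 0.05. The study describes its genome-wide data as combining 3 biological replicates. Whether the 3 libraries of a group came from separate cultures is not stated. The p-values measure the spread between these libraries, which may be technical. The 3 KO shMBD6 libraries were less alike than those of the other groups, replicate 3 differing most from the others (chi-square per gene 10.2 and 8.35, against 3.02 to 5.66 within the other groups). ERCC spike-in RNA amounted to 0.872% to 0.881% of gene counts in WT shControl and to 0.320% to 0.323% in KO shMBD6. It amounted to 0.363% to 0.385% in KO shControl and to 0.392% to 0.397% in WT shMBD6. The shared control WT shControl thus stood apart from all other K-562 groups. Scaling to these counts, as the study did, moved the median difference of all genes from 0.00704 to 1.44 and turned 16373 genes higher and 150 lower. Each level and direction below is therefore relative to all genes counted in that library.

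*MBD6* (gene ENSG00000166987.14, hg38 chromosome 12, 57520710 to 57530148, plus strand), the hairpin's target, had 81.6, 88.4 and 77.3 CPM in the 3 WT shControl libraries and 43.5, 43.9 and 42.4 CPM in KO shMBD6. The groups did not overlap, and the difference was -0.93 (SE 0.0539, edgeR adjusted p 8.1e-12), but 0.51 with ERCC scaling, which is below the median of 1.44. *TET2* (gene ENSG00000168769.13, hg38 chromosome 4, 105145875 to 105279816, plus strand) had 33.6, 28.4 and 30.5 CPM in WT shControl and 31.3, 32.7 and 31.3 CPM in KO shMBD6. These ranges overlapped (difference 0.045, edgeR adjusted p 0.602), so its transcript count does not check the genotype, and KO refers to the libraries labelled so. Among the other PR-DUB genes *BAP1*, the catalytic subunit, was -0.091 from control (edgeR adjusted p 0.0923), while *ASXL1* (-0.17), *HCFC1* (-0.34) and *OGT* (-0.21) were lower and *MBD5*, the paralogue of *MBD6*, higher (0.41). The other TET genes were lower without spike-in scaling, *TET1* by a difference of -0.25 and *TET3* by one of -0.41. The RNA 5-methylcytosine transferases *NSUN2* (0.18) and *NSUN5* (0.19) and the TET2 partner *PSPC1* (0.18) were higher, and *TRDMT1* (0.24, edgeR adjusted p 0.0258) passed by a margin that was lost when any 1 of WT shControl replicates 2 and 3 and KO shMBD6 replicates 2 and 3 was left out (edgeR adjusted p 0.068 to 0.125). *SOCS3*, a feedback inhibitor of cytokine signalling, was higher by 0.36, and *NFKBIA* was 0.075 from control (edgeR adjusted p 0.433).

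Of 17936 genes tested, 9005 (50.2%) were called between KO shMBD6 and WT shControl, 4688 higher and 4317 lower. Most of these differences were small: 58.1% of the called genes differed by less than 1.5-fold. At least 2-fold differences were found for 2316 genes (12.9%), 1672 higher and 644 lower, and at least 4-fold differences for 1091. Of the 2316, 801 (590 higher, 211 lower) had means under 1 CPM in both groups, where a few counts weigh heavily. The libraries of the groups did not overlap for 10127 genes (56.5%). KO shControl, compared with the same WT shControl libraries, had 1862 genes at least 2-fold apart (10.4%), 1274 higher and 588 lower. The root mean square difference of group means in log2 CPM was 0.6125 between KO shMBD6 and WT shControl, against 0.5375 between KO shControl and WT shControl, 0.3669 between WT shMBD6 and WT shControl and 0.3688 between KO shMBD6 and KO shControl. Single libraries of the compared groups were 0.634 to 0.6645 apart, and libraries of 1 group 0.2322 to 0.2849. The doubly perturbed cells were thus farther from the control than the knockout with the control hairpin was, by a distance that is described here and was not tested.

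The 1862 genes that were at least 2-fold apart in KO shControl were followed into KO shMBD6, with WT shControl shared by both comparisons. Called and still at least 2-fold apart in the same direction were 1305 of them (70.1%). Back at the control level were 46 (2.47%): their 90% interval of the difference from WT shControl lay within 1.5-fold, and all KO shControl libraries lay to one side of both other groups. A further 16 (0.859%) were crossed, meaning called in the opposite direction, and 495 (26.6%) lay in between. Only 895 of the 1862 (48.1%) were measured precisely enough for their interval to be narrower than the margin, and these hold all 46 genes that were back, 627 still apart and 208 in between. Over all genes tested, 9125 (50.9%) had an interval inside the margin. With ERCC scaling 13774 genes were at least 2-fold apart in KO shControl, 12685 of them still apart and 23 back, none of which is among the 46. The number that were back rests on the precision: a margin of 0.322 on the log2 scale gave 11 and one of 2-fold 174, and without WT shControl replicate 3 there were 30, 27 of them among the 46.

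**Figure D1:**
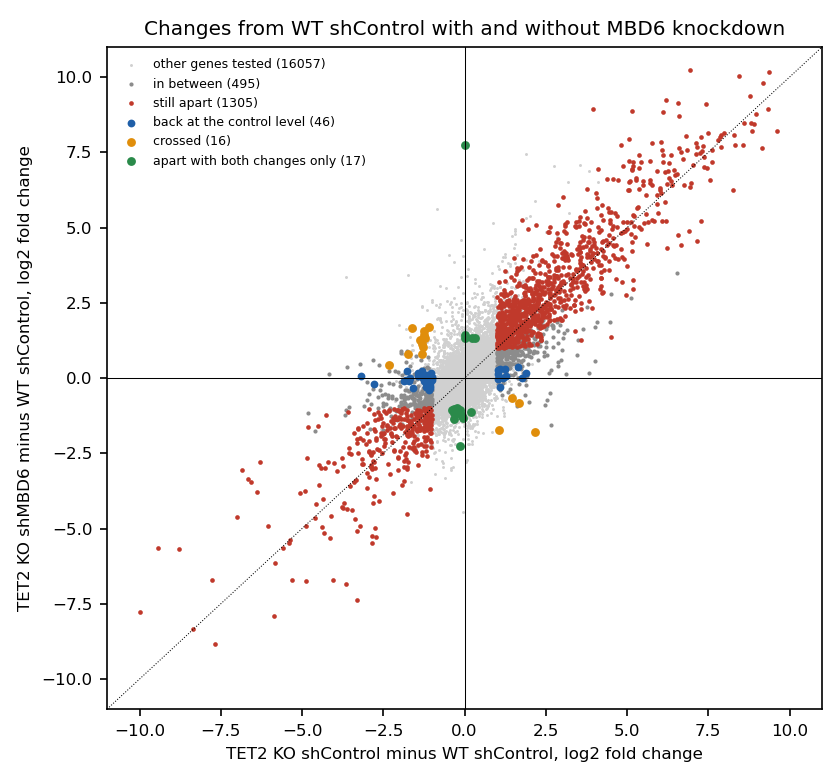
Log2 fold change from WT shControl with TET2 KO and the control hairpin (x axis) and with TET2 KO and the MBD6 hairpin (y axis) for each of the 17936 genes tested, coloured by class. Both axes share the WT shControl libraries. Most of the 1305 genes still apart lie near the dotted line of equal change, the 46 genes back at the control level lie on the horizontal line, and the 16 crossed genes lie in the upper left and lower right.

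Genes higher in KO shControl were back less often than genes lower in it. Of the 1274 higher genes 984 (77.2%) were still apart and 11 (0.863%) back, and of the 588 lower genes 321 (54.6%) were still apart and 35 (5.95%) back. Dividing the KO shMBD6 change of each gene by its KO shControl change gave a median of 1.00 for the higher genes, with an interquartile range of 0.744 to 1.26. The median was 0.669 for the lower genes, with a range of 0.372 to 1.02. For 801 of the 1862 genes the KO shMBD6 change was the larger one, and for 81 it had the opposite sign. The KO shControl libraries that chose these genes are also the denominator of this share, and the difference between directions is a description. The class of genes that were back also asks for a narrow interval, and precision was not compared between the directions.

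**Figure D2:**
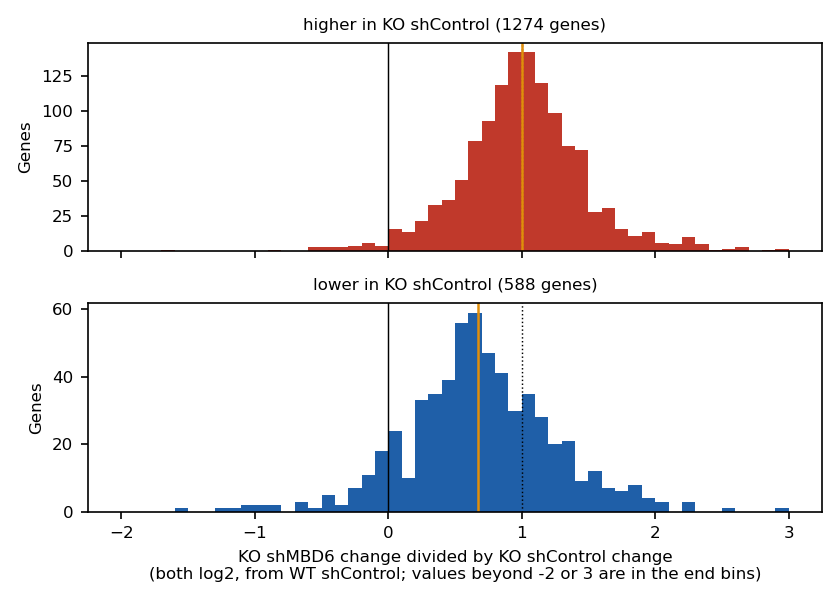
Number of genes (y axis) by the KO shMBD6 log2 change divided by the KO shControl log2 change, both from WT shControl (x axis), for 1274 genes higher and 588 genes lower in KO shControl. A value of 0 is the control level, the dotted line at 1 marks an equal change, and the orange line is the median, 1.00 for the higher and 0.669 for the lower genes.

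The 46 genes back at the control level comprised 37 protein-coding genes, 6 long non-coding RNAs and 3 pseudogenes, and all 46 were called between KO shMBD6 and KO shControl (34.8% of all genes tested were), which the rule of the class all but fixes. Among those higher in KO shControl was *MYO16* (ENSG00000041515.15, hg38 chromosome 13, 108596152 to 109208005, plus strand), an unconventional myosin. It had 13.7, 13.9 and 14.1 CPM in WT shControl, 48.1, 49.8 and 45.3 CPM in KO shControl and 14.3, 14.6 and 13.1 CPM in KO shMBD6. The KO shMBD6 libraries lay on both sides of the control libraries, with a difference of 0.00806 (90% interval -0.13 to 0.15). *RELN*, a secreted glycoprotein known from neuronal positioning, had 56.7, 48.2 and 51.5 CPM in WT shControl, 192, 193 and 198 CPM in KO shControl and 54.8, 59.8 and 60.8 CPM in KO shMBD6. Both genes were lower with the hairpin in WT cells too, *MYO16* by a difference of -1.01 and *RELN* of -0.69, and the difference was larger in KO cells, -1.77 and -1.73 (interaction, edgeR adjusted p 5.43e-05 and 6.62e-09). *ADD2*, the membrane-skeleton protein beta-adducin, fell from 132 ± 3.51 CPM (SD, n = 3) in KO shControl to 76.3 ± 2.40 CPM, near the 62.1 ± 1.39 CPM of the control, from which it still differed by 0.30 (edgeR adjusted p 3.24e-06). Being within the margin therefore does not mean that no difference was called.

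*GABRG1* and *GPR161* also fell back, *GABRG1*, a subunit of a GABA receptor, to 12 CPM from 28.8 CPM with 9.27 CPM in the control, and *GPR161*, a receptor of the primary cilium, to 2.84 CPM from 7.45 CPM with 3.48 CPM. *PRF1*, the pore-forming perforin of cytotoxic lymphocytes, went from 43.9 to 23.1 CPM with 18.7 CPM in the control, *PCED1B* from 25.8 to 15.1 CPM with 12.5 CPM, and the long non-coding RNA gene ENSG00000283235 from 7.55 to 3.23 CPM with 3.10 CPM. *RELN* (0.17), *PRF1* (0.31), *PCED1B* (0.27) and *GABRG1* (0.37) were still called above the control. *PCED1B* lost that call without WT shControl replicate 1 and the others without WT shControl replicate 2, among other libraries (edgeR adjusted p up to 0.156).

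*EGR1* (ENSG00000120738.7, hg38 chromosome 5, 138465479 to 138469303, plus strand), an immediate early transcription factor, was lower in KO shControl and back in KO shMBD6. It had 39.8, 43.6 and 41.9 CPM in WT shControl, 15.5, 16.3 and 18.4 CPM in KO shControl and 44.4, 44.7 and 41.7 CPM in KO shMBD6, so that the KO shControl libraries alone stood apart. Its difference from control was 0.059 (90% interval -0.044 to 0.16), and the hairpin raised it by 1.38 in KO and by 0.48 in WT cells (interaction, edgeR adjusted p 2.5e-07). *PPIC*, the peptidyl-prolyl isomerase cyclophilin C, had 34.3, 38.7 and 33 CPM in WT shControl, 15.7, 15.2 and 15 CPM in KO shControl and 31.8, 31.7 and 41.8 CPM in KO shMBD6. For *PPIC* KO shMBD6 replicate 3 was above all control libraries and the other two below them, and without it the difference passed at -0.16 (edgeR adjusted p 0.0499). The small GTPase gene *RHOB* rose from 2.27 to 5.73 CPM with 5.62 CPM in the control. *TMEM158*, a membrane protein induced by RAS signalling, rose from 7.58 to 22 CPM with 18.8 CPM in the control. *BEND7* rose from 3.67 to 12.2 CPM with 12.7 CPM, *ACRBP*, an acrosin-binding protein, from 4.67 to 11.2 CPM with 14.2 CPM, the GABA receptor subunit *GABRQ* from 1.58 to 5.31 CPM with 5.75 CPM, and *PAIP2B*, which restrains poly(A)-binding protein, from 2.31 to 5.72 CPM with 5.64 CPM. With the hairpin in WT cells each of the genes named in this direction was above WT shControl, by 0.41 (*ACRBP*) to 1.07 (*BEND7*).

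At the edge of the margin of 0.585, *TEX11* (outer bound 0.583) and *LDHD* (0.584) were the last genes inside and *ADGRE1* (0.588) and *H3C10* (0.588) the first outside.

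The 16 crossed genes were 12 that were lower and 4 that were higher in KO shControl. *ANKRD33* had 4.24, 3.11 and 3.13 CPM in WT shControl, 1.44, 1.51 and 1.94 CPM in KO shControl and 11.4, 11 and 11.3 CPM in KO shMBD6, 1.70 above the control (SE 0.139, edgeR adjusted p 1.95e-09). *TNS1*, which links integrins to actin, had 2.83, 4.01 and 3.72 CPM, 1.35, 1.32 and 1.40 CPM and 9.10, 7.79 and 8.92 CPM in the same order of groups. In WT cells the hairpin took *TNS1* to 13.9 CPM, above its level in KO shMBD6. *ACP5*, the acid phosphatase known from osteoclasts, ended 1.13 above the control, the antisense gene *LY86-AS1* 0.80 and *PAGE4*, of a testis antigen family, 0.42. All 16 were called between KO shMBD6 and KO shControl, which the rule all but fixes, and for 10 the hairpin effect differed between the genotypes by the interaction term, which was called for 21.3% of all genes tested.

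**Figure D3:**
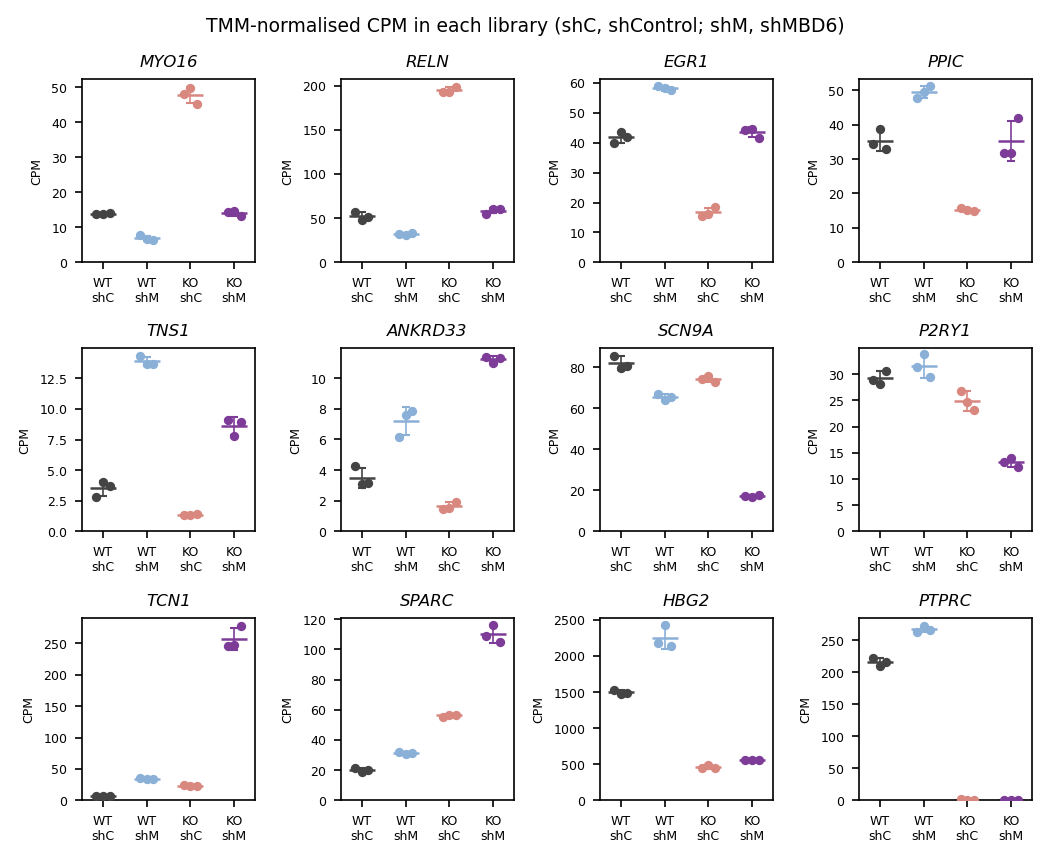
TMM-normalised CPM (y axis, linear from 0) in each library of the 4 groups for 12 genes, with the mean and SD of 3 libraries. *MYO16*, *RELN*, *EGR1* and *PPIC* were back at the control level, *TNS1* and *ANKRD33* crossed it, *SCN9A* and *P2RY1* were low in KO shMBD6 alone, *TCN1* and *SPARC* were highest there, and *HBG2* and *PTPRC* were low in both KO groups.

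Among the 1305 genes still apart, 927 were protein-coding and 247 long non-coding RNAs. *PTPRC* (ENSG00000081237.19, hg38 chromosome 1, 198638457 to 198757476, plus strand), the phosphatase of the leukocyte surface, had 223, 209 and 215 CPM in WT shControl and 0.646, 0.462 and 0.279 CPM in KO shMBD6, and 1.56, 0.869 and 0.732 CPM in KO shControl. The groups were far apart (difference -8.85, SE 0.114, edgeR adjusted p 8.88e-23), and the hairpin moved *PTPRC* by -1.18 in KO cells and 0.31 in WT cells. The other largest falls went from 34.1 to 0.154 CPM for the cancer-testis antigen *CTAG2*, from 24.3 to 0.226 CPM for the guidance receptor *ROBO1*, from 10.4 to 0.0955 CPM for the globoside synthase *B3GALNT1* and from 10.4 to 0.139 CPM for the immune receptor *CTLA4*. *AHSP*, the chaperone of alpha-globin, fell from 18.4 to 0.763 CPM, *EPSTI1* from 11.9 to 0.386 CPM, *MAEL*, a germline transposon silencer, from 6.08 to 0.129 CPM, and the p53 relative *TP73* from 8.75 to 0.424 CPM. *GSDME*, a gasdermin, fell from 14.7 to 0.923 CPM. Each of these falls kept its direction with ERCC scaling.

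The largest rises started from near 0. *ARHGAP15*, a GTPase-activating protein for RAC, had 0.326, 0.301 and 0.417 CPM in WT shControl, 40.1, 41 and 49.9 CPM in KO shMBD6 and 64.7, 61.8 and 57.4 CPM in KO shControl (difference from control 6.98, SE 0.191, edgeR adjusted p 4.21e-17). The transcription factor *DACH1* had at most 0.0502 CPM in WT shControl and 13.6, 11.9 and 11.5 CPM in KO shMBD6. *CYB5A*, cytochrome b5, had 17.5, 16.3 and 14.4 CPM in KO shMBD6 against 9.45, 7.74 and 10.5 CPM in KO shControl, with 1 count over the 3 control libraries. *GRID1*, *ZPLD1*, *SEMA3D*, *PDGFD* and *HDC*, the enzyme that makes histamine, had means of 5.00 (*SEMA3D*) to 9.23 CPM (*GRID1*) in KO shMBD6 and of at most 0.0515 CPM in the control, and the long non-coding RNAs *LINC02241* and *LINC00508* had 6.17 and 7.32 CPM against 0.0121 and 0.0242 CPM. No fold is given for genes with a few counts or none in the control. *MYH2*, a myosin heavy chain of skeletal muscle, had 0, 0.0502 and 0 CPM in WT shControl, 0.353, 0.308 and 0.478 CPM in KO shControl and 11.8, 11.5 and 13 CPM in KO shMBD6. Its neighbours on chromosome 17, *MYH8* (2.21 CPM), *MYH1* (1.72 CPM) and *MYH4* (0.776 CPM), chosen after their values were seen, had 0 CPM in the control and 0.263 CPM (*MYH8*), 0.128 CPM (*MYH1*) and 0 CPM (*MYH4*) in KO shControl. These genes resemble each other in sequence, and *MYH4* was not called by DESeq2 (adjusted p 0.162).

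The 2316 genes at least 2-fold from control in KO shMBD6 were also placed by the single perturbations. Of them 953 (41.1%) were at least 2-fold apart in the same direction in KO shControl alone and 352 (15.2%) in KO shControl and WT shMBD6 alike. Another 293 (12.7%) were so in WT shMBD6 alone and 718 (31%) in neither, of which 215 were called in KO shControl in the same direction at a smaller size. All 3 comparisons share the WT shControl libraries.

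At least 2-fold apart in KO shMBD6 but with the 90% interval within 1.5-fold in both single perturbations were 17 genes, 5 higher and 12 lower. This rule asks for narrow intervals, and the count was 158 (83 higher, 75 lower) with a 2-fold margin, 4 with a margin of 0.322 on the log2 scale and 5 with ERCC scaling. *SCN9A* (ENSG00000169432.15, hg38 chromosome 2, 166195185 to 166376001, minus strand), a voltage-gated sodium channel, had 85.7, 79.5 and 80.7 CPM in WT shControl, 74.4, 75.6 and 72.8 CPM in KO shControl, 67.1, 63.9 and 65.6 CPM in WT shMBD6 and 17.2, 16.6 and 17.6 CPM in KO shMBD6. The last group stood well below the others, -2.26 from the control (SE 0.0492, edgeR adjusted p 1.1e-18), and the interaction term was -1.79 (edgeR adjusted p 2.43e-13). The glycophorin gene *GYPE* (-1.37) and, outside this class, *GYPB* (-2.23) fell too, and reads shared between near-identical copies make these values uncertain. *P2RY1* (ENSG00000169860.6, hg38 chromosome 3, 152835131 to 152841439, plus strand), an ADP receptor known from platelets, had 28.8, 28.1 and 30.7 CPM in WT shControl and 13.1, 14 and 12.3 CPM in KO shMBD6, with 24.8 CPM in KO shControl and 31.5 CPM in WT shMBD6, a difference from control of -1.15 (SE 0.0781, edgeR adjusted p 1.02e-10). *LONRF2* (-1.16), *TMTC2* (-1.16) and *L3MBTL1*, a chromatin-compacting protein (-1.07), were lower as well. All these falls are relative: with ERCC scaling they became small rises of 0.071 (*GYPE*) to 0.37 (*L3MBTL1*), except *SCN9A* and *GYPB*. *B3GAT1-DT* (1.35), a non-coding RNA, and *GIMAP2* (1.32), of a GTPase family of immune cells, were higher. The interaction was called for 14 of the 17, a count that the rule of this class favours, and *L3MBTL1* was not among them (edgeR adjusted p 0.0804).

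Erythroid genes were more often called lower than higher in KO shMBD6, relative to other genes. Over all genes tested 26.1% were called higher and 24.1% lower, with a median difference of 0.00704. Of 8 globin genes tested 6 were called lower and none higher, with a median of -1.02 (4 were called higher with ERCC scaling). Their summed level was 1744 to 1856 CPM in WT shControl and 700.0 to 716 CPM in KO shMBD6. *HBG2*, a fetal globin gene, had 1532, 1478 and 1488 CPM in WT shControl, 463 CPM in KO shControl, 2252 CPM in WT shMBD6 and 559, 559 and 555 CPM in KO shMBD6. In WT cells the hairpin thus went with more *HBG2* (0.59), and in KO cells the difference was 0.27 (interaction, edgeR adjusted p 0.000382). *HBZ* (-1.05), *HBA1* (-1.09), *HBA2* (-1.31) and *HBG1* (-0.74) were lower too, and *HBE1*, under 1 CPM in every library of both groups, was not called. *HBG1* and *HBG2*, and *HBA1* and *HBA2*, are near-identical copies, which makes their single values uncertain. In bulk RNA, fewer cells of a type and less RNA per cell cannot be told apart.

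Of 28 erythroid factors and membrane genes tested 21 were lower and 3 higher (median -0.60, with 22 higher under ERCC scaling). The master regulator *GATA1* had 245, 258 and 247 CPM in WT shControl and 195, 189 and 195 CPM in KO shMBD6, a difference of -0.37. *KLF1*, the activator of adult globin, (-0.82), *LMO2*, a partner of TAL1 (-1.71), and the anion exchanger *SLC4A1* (-2.56) were lower, while *TAL1* (-0.12) lost its call without WT shControl replicate 2 (-0.099) or KO shMBD6 replicate 2 (-0.072). Among 17 haem and iron genes 10 were lower and 2 higher (median -0.13, all 17 higher with ERCC scaling). The haem synthesis enzymes *UROD* (-1.25), *PPOX* (-0.81) and *UROS* (-0.63) and the erythroid-associated *FAXDC2* (-1.26) were lower. *ALAS2* of the same list went the other way, with raw counts of 2043, 3250 and 2297 in WT shControl and 4037, 3393 and 4306 in KO shMBD6. So did *EPB42* of the membrane genes, with raw counts of 27, 62 and 44 in WT shControl and 85, 78 and 80 in KO shMBD6. *TFRC*, the transferrin receptor, had 311, 307 and 311 CPM in WT shControl and 279.9, 287 and 283 CPM in KO shMBD6 but 453, 465 and 453 CPM in KO shControl.

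Granulocyte, leukocyte and progenitor genes were more often called higher than lower. Of 20 granulocyte and monocyte genes tested 12 were higher and 2 lower (median 1.16), and the summed level was 305 to 311 CPM in WT shControl and 599 to 623 CPM in KO shMBD6. *TCN1* (ENSG00000134827.7, hg38 chromosome 11, 59852800 to 59866489, minus strand), a cobalamin carrier of neutrophil granules, held most of that rise. It had 6.38, 6.47 and 7.58 CPM in WT shControl, 24.1, 22.7 and 22.7 CPM in KO shControl, 35, 34.1 and 33.8 CPM in WT shMBD6 and 246, 248 and 278 CPM in KO shMBD6, 5.24 above the control (SE 0.0657, edgeR adjusted p 6.73e-23), with an interaction of 1.14 (edgeR adjusted p 2.83e-08). The eosinophil peroxidase *EPX* rose from 0.382 to 9.06 CPM, the integrin *ITGAM* from 0.860 to 4.09 CPM, the granulocyte factor *CEBPE* from 0.0530 to 1.71 CPM and the eosinophil protein *CLC* from 0.0204 to 1.19 CPM. The defining granule genes *MPO*, *ELANE*, *PRTN3* and *CTSG* were among 12 members too low to test, none above 0.348 CPM in any of the 6 libraries.

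Of 22 leukocyte surface and signalling genes 14 were higher and 5 lower, among them *ARHGDIB* (15 to 81.7 CPM), a GDP-dissociation inhibitor of blood cells, and the lymphoid factor *IKZF3* (0.674 to 6.93 CPM). Of 14 stem and progenitor genes 8 were higher and 3 lower. *KIT*, the stem cell factor receptor, had 0.616, 0.452 and 0.522 CPM in WT shControl and 17.4, 17.1 and 18.2 CPM in KO shMBD6, and *HOXB4* rose by 0.66. *ARHGDIB*, *IKZF3* and *KIT* were already high without the *MBD6* hairpin. Their raw counts in KO shControl were 2957, 3087 and 2695 for *ARHGDIB*, 277, 285 and 205 for *IKZF3* and 416, 394 and 433 for *KIT*. In KO shMBD6 they were 3098, 2725 and 2794, then 258, 234 and 238, and 648, 557 and 651. Of 7 B lymphoid genes tested 5 were higher and 1 lower, with *CD37* at 16.1 and 33.3 CPM, and 11 more, *CD79A* and *MS4A1* among them, were too low to test (at most 0.523 CPM). Of 11 T and NK lymphoid genes 2 were higher and 2 lower, and 13 more were too low to test (at most 0.550 CPM). The labels call the cells lymphoblasts. Of 12 megakaryocyte and platelet genes tested 6 were higher and 5 lower (10 and 2 with ERCC scaling), with beta-tubulin *TUBB1* falling from 41.5 to 7.49 CPM and *PLEK*, a platelet signalling protein, rising from 0.595 to 4.02 CPM. The summed level of this list was 502 to 514 CPM in WT shControl and 349 to 376 CPM in KO shMBD6. The sums were 36.8 to 37.5 and 54.1 to 59.7 CPM for B lymphoid genes, and 49.1 to 53.3 and 48.7 to 57 CPM for T and NK lymphoid genes. The part of other cell types in the results was not tested.

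Matrix genes were also more often called higher than lower. Of 24 collagens and matrix genes 14 were higher and 6 lower (median 0.74, summed level 803 to 819.7 and 1290.0 to 1316 CPM). *SPARC*, a collagen-binding glycoprotein, had 21.6, 19 and 19.8 CPM in WT shControl and 109, 116 and 105 CPM in KO shMBD6, with 56.3 CPM in KO shControl. *COL1A1* rose from 1.03 to 5.22 CPM, below the 9.81 CPM of WT shMBD6. Of 23 mesenchymal and cytoskeleton genes 13 were higher and 5 lower, with vimentin *VIM* at 776 and 1647 CPM and the receptor kinase *AXL* at 1.33 and 6.66 CPM. Of 11 epithelial and embryonic kidney genes 5 were higher and 2 lower (summed level 1379 to 1386 and 1371 to 1442 CPM). Of 24 cancer-testis antigens 11 were higher and 4 lower, with *SSX1* at 48.6 and 246 CPM and *MAGEA1* at 15.2 and 84.9 CPM, both members of families with similar copies. Both were already high in KO shControl, with raw counts of 7385, 7438 and 6356 for *SSX1* and 2077, 2251 and 1743 for *MAGEA1*. In KO shMBD6 the raw counts were 9178, 7940 and 8890 for *SSX1* and 3110, 2891 and 2936 for *MAGEA1*.

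Of 32 interferon-induced genes 14 were higher and 7 lower. The restriction factors *IFITM2* (21 to 95 CPM) and *MX2* (1.58 to 8.75 CPM) rose, and the immunoproteasome subunit *PSMB8* fell from 5.25 to 1.29 CPM. *IFITM2* was already high in KO shControl, with raw counts of 2946, 3004 and 2617 against 3548, 3127 and 3338 in KO shMBD6. Of 37 NF-kB, JAK-STAT and immediate early genes 16 were higher and 5 lower. *STAT5A*, a cytokine-activated transcription factor, had 255, 261 and 261 CPM in WT shControl and 448, 447 and 463 CPM in KO shMBD6, and *RELB* rose from 0.805 to 3.10 CPM. Of 23 cell cycle brakes and stress arrest genes 3 were higher and 9 lower (20 higher and none lower with ERCC scaling). The cyclin-dependent kinase inhibitor *CDKN1A* had 35, 36.6 and 34.4 CPM in WT shControl, 6.01, 5.35 and 7.07 CPM in KO shControl and 11.4, 11 and 12.5 CPM in KO shMBD6, and the antiproliferative *BTG2* fell by 0.78. *CDKN1A* was no longer called with ERCC scaling (-0.16, edgeR adjusted p 0.0753). Of 27 apoptosis regulators 9 were higher and 8 lower (all 27 higher with ERCC scaling), with *BCL2*, which protects from apoptosis, at 1.30 and 2.80 CPM and the opposing *BAD* at 26.4 and 16.3 CPM.

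Housekeeping lists differed by smaller amounts, none of their members by 2-fold. Of 32 cholesterol and fatty acid synthesis genes 24 were lower and 3 higher (median -0.22, all 32 higher with ERCC scaling), among them the desaturase *FADS1* (-0.63) and lanosterol synthase *LSS* (-0.68). Of 32 ribosome biogenesis genes 18 were higher and 1 lower (median 0.14), among them *BOP1* (0.65) and *NOLC1* (0.46). Of 13 mitochondrially encoded genes 8 were lower and none higher (median -0.18, all 13 higher with ERCC scaling), among them *MT-CYB* (-0.45) and *MT-ND4* (-0.28). Of 38 DNA replication genes 10 were higher and 13 lower (all 38 higher with ERCC scaling), with the helicase subunit *MCM7* at 0.45 and the flap nuclease *FEN1* at -0.34. Of 38 mitosis genes 9 were higher and 18 lower (all 38 higher with ERCC scaling), with the checkpoint kinase *BUB1B* at 0.63 and separase *ESPL1* at -0.58. The kinesin *KIF23* had 84, 84.5 and 118 CPM in KO shMBD6, replicate 3 standing above the others, and 63.4, 59.3 and 60.9 CPM in WT shControl. Of 30 genes of ATF4 and amino acid stress 7 were higher and 14 lower (all 30 higher with ERCC scaling), with the stress factor *NUPR1* at 0.84, the transporter *SLC7A5* at 0.51 and the serine synthesis enzyme *PHGDH* at -0.59. Chromatin lists were split: PR-DUB and MBD with 2 higher and 5 lower of 10, TET and RNA m5C with 5 and 5 of 14 (*CXXC5*, a CXXC zinc finger protein, -0.78), and PRC1 with 8 and 3 of 21 (*CBX2* 0.58, *RYBP* -0.33). With ERCC scaling all members of these 3 lists were higher.

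**Figure D4:**
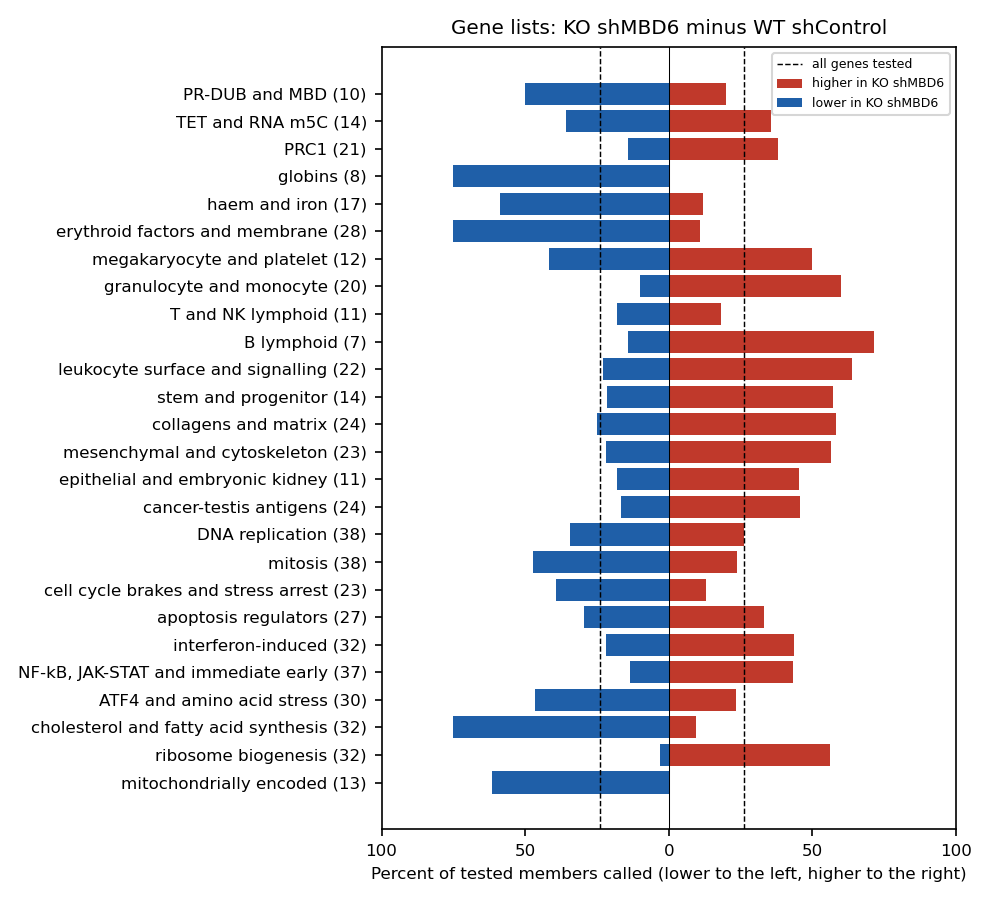
Percent of the tested members of each gene list (number in brackets) called higher (red, to the right) or lower (blue, to the left) in KO shMBD6 than in WT shControl, with dashed lines at 26.1% and 24.1% for all genes tested. Globins, erythroid, haem, cholesterol and mitochondrially encoded genes lean to the left and granulocyte, B lymphoid and ribosome biogenesis genes to the right, relative to other genes, and with ERCC scaling nearly all would lie to the right.

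Differences also followed the chromosomes. The median difference between KO shMBD6 and WT shControl was 0.561 over the 610 genes tested on chromosome 15, of which 65.7% were called higher and 2.62% lower. It was 0.303 on chromosome 8 (50.8% higher, 13.5% lower) and 0.163 on chromosome 7 (39.8% higher, 17.6% lower), and between -0.0996 (chromosome 22) and 0.0483 (chromosome 5) on the others. In KO shControl the medians were 0.552, 0.303 and 0.205 for chromosomes 15, 8 and 7, against the same WT shControl libraries. Still apart were 76 of 610 genes tested on chromosome 15, 58 of 577 on chromosome 8 and 86 of 875 on chromosome 7. Over all genes tested they were 1305 of 17936. Chromosomes 1 (109 of 1809) and 2 (90 of 1151) held more of them among more genes tested. Chromosomes X (83 of 648) and 4 (78 of 646) also held many, and these shares were not tested. Some genes named above as higher lie on these chromosomes, *BUB1B* and *KIF23* on chromosome 15, *BOP1* on chromosome 8 and *MCM7* on chromosome 7. The part of the chromosome shift in their values and in the gene lists was not tested. A difference in chromosome copy number between the WT and KO lines was not measured, and it cannot be told apart from the genotype in these groups.

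**Figure D5:**
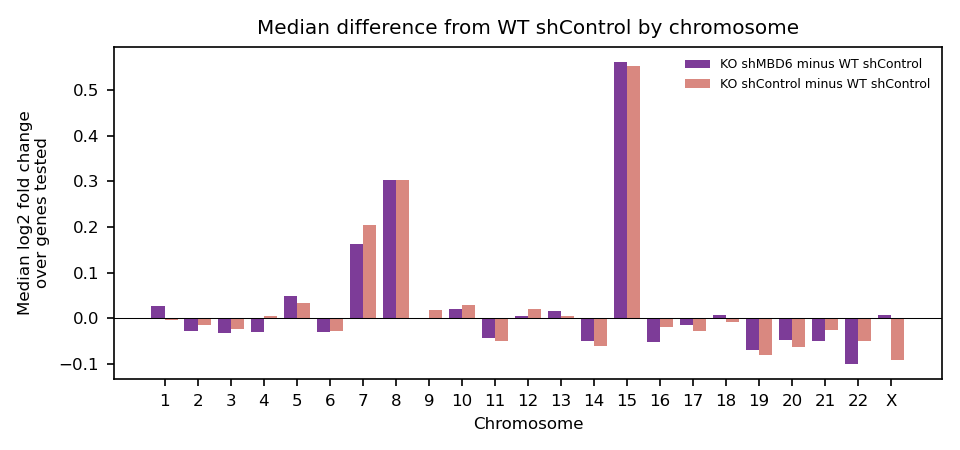
Median log2 fold change from WT shControl over the genes tested on each chromosome, for KO shMBD6 (purple) and KO shControl (pink), which share the WT shControl libraries. Chromosome 15 stands at 0.561 and 0.552, chromosome 8 at 0.303 in both and chromosome 7 at 0.163 and 0.205, and the other chromosomes lie within 0.1 of 0.

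Promoters of genes still apart more often had a low CpG ratio than those of all genes tested. Each promoter was taken as the 250 bases before to 50 after the start of the canonical transcript (GENCODE release 44, hg38). Over 13091 protein-coding genes tested the median observed to expected CpG ratio was 0.846, and 10.6% of promoters had a ratio under 0.4. Among genes still apart this share was 30.4% of 707 promoters for higher and 24.1% of 220 for lower genes. It was 21.4% of 28 promoters for lower genes that were back and 44.4% of 9 for higher ones, and 28.7% of 136 and 31.2% of 144 for higher and lower genes in between, so that a low ratio was not particular to genes still apart. The letters GATAA, which the GATA factors of erythroid cells recognise in part, stood on either strand of 13.7% of all promoters. Their share was 19.9% and 20.9% for higher and lower genes still apart and 17.6% and 19.4% for higher and lower genes in between. It was 25% (7 of 28) and 33.3% (3 of 9) for lower and higher genes that were back. The letters CACGTG, the E-box of MYC and related factors, stood in 10% of all promoters, in 5.5% and 8.6% of those of higher and lower genes still apart, in 10.3% and 2.8% of those in between, and in 3 of the 9 of higher genes that were back. The classes also differ from other genes in level, and a part of level in these shares was not tested. A match of letters is a description and not a binding site.

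The 250 bases before the start are shown for genes that illustrate this, read from the hg38 genome in the direction of the gene, 5′ to 3′, with GATAA (or TTATC, its other strand) and CACGTG in capitals. *PTPRC* (chr1:198638790-198639039, plus strand, CpG ratio 0.12 over the whole window) and *ARHGAP15* (chr2:143129169-143129418, plus strand, 0.37) were still apart. *EGR1* (chr5:138465229-138465478, plus strand, 0.92) and *MYO16* (chr13:108629361-108629610, plus strand, 0.43) were back. The canonical start can lie inside the outer bounds of a gene.
PTPRC: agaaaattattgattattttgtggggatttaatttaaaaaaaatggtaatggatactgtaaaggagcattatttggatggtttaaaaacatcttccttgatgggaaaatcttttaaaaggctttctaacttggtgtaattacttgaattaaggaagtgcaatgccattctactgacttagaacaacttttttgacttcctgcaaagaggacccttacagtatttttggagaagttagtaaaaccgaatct
ARHGAP15: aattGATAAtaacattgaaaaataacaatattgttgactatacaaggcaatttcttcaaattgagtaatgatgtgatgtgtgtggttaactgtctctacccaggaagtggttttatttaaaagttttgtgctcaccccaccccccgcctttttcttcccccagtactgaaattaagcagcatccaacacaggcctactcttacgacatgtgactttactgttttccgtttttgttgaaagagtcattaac
EGR1: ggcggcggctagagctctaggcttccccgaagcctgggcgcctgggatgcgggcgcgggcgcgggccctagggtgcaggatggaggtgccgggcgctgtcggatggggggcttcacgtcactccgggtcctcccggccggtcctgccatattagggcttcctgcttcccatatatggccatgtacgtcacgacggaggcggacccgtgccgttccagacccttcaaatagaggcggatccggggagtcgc
MYO16: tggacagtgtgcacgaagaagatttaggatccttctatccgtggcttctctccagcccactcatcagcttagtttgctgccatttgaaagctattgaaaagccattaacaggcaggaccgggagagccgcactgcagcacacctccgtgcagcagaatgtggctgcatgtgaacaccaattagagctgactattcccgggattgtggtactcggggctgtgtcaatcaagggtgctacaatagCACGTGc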

How the data were processed

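RNA of 12 K-562 libraries of 4 groups (3 each) was measured by sequencing, and the 6 libraries of the KO shMBD6 and WT shControl groups were compared. The authors trimmed reads with Trimmomatic 0.39, aligned them to hg38 with ERCC sequences by HISAT2 2.2.1 and deposited read counts per gene from HTSeq 0.12.4, not normalised. The strand setting of the counting is not given in the sources used here. From these counts, 92 ERCC rows and 5 HTSeq summary lines were kept apart. The 12 libraries were fitted together in edgeR 4.0.16 (R 4.3.3, filterByExpr, TMM, quasi-likelihood test), with Benjamini-Hochberg adjustment over the 17936 genes tested and a threshold of 0.05. Intervals are log2 fold change ± t quantile × SE. The biological coefficient of variation was 0.0618. Gene symbols and positions came from GENCODE release 44 (99.12% of 58721 gene identifiers matched). The steps were tested on simulated data: with 17426 genes tested, 71.5% of 200 genes changed 2-fold between these groups were called, with 12 false calls. With 17439 genes tested, 71 of 100 simulated returning genes were classed as back and 87 of 100 simulated lasting genes as still apart. These genes were drawn from all genes passing the filter and changed 3-fold. Of the 1862 real genes only 48.1% had an interval narrower than the margin, so these shares do not carry over to them.

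Genes named were those the study discusses, the 10 largest rises and falls among protein-coding genes of at least 5 CPM in the higher group, up to 8 per class and direction, and up to 5 per gene list with the largest called change, plus K-562 markers, and some of these are not reported here. The members, lists and rules were chosen with earlier results of these data known. A member *DDX58* of the interferon list was not found under that symbol. Alternatives were RLE and ERCC scaling, DESeq2 1.42.0, no filter, unadjusted p-values, fits of the compared groups alone, a replicate block, other margins and limits, and leaving out each library.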

Additional observations from a re-analysis of the deposited data

Results flagged for a closer look

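Hairpin effects that differed between the genotypes, by the interaction term of the edgeR fit, drew attention for 3820 of 17936 genes (21.3%). By class they were 28 of the 46 genes back at the control level (60.9%), 322 of the 1305 still apart (24.7%), 10 of the 16 crossed (62.5%) and 14 of the 17 apart with both changes only (82.4%). The rules of all 4 classes use libraries that also enter the interaction, so that these shares are a description.

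For 542 genes the hairpin effects were called in opposite directions in KO and WT cells and the interaction was called too. Of the genes named above with more than 3 counts in every group, *NUPR1* rose by 1.22 in KO cells and fell by 0.23 in WT cells (interaction 1.45, edgeR adjusted p 6.07e-12), and *B3GAT1-DT* rose by 1.01 and fell by 0.43 (interaction 1.44, edgeR adjusted p 3.08e-09). The others fell in KO and rose in WT cells: *BCL2* (interaction -1.65, edgeR adjusted p 0.000111), *PTPRC* (-1.49, edgeR adjusted p 0.000583), *ADD2* (-0.96, edgeR adjusted p 2.45e-10), *TET1* (-0.82, edgeR adjusted p 9.07e-08) and *STAT5A* (-0.46, edgeR adjusted p 1.26e-07).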

How the results depend on the processing

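The counts of called genes and of each class stayed within 1.5 times the main count under RLE scaling, DESeq2, no filter, unadjusted p-values and fits of the compared groups alone. Scaling to ERCC counts gave 16523 called genes, 14955 at least 2-fold, 13774 at least 2-fold in KO shControl, 12685 still apart, 23 back, 21 crossed and 5 apart with both changes only. *MBD6* was then 0.51 and *TET2* 1.48, and the following named genes had the opposite sign, with log2 differences of *HBG2* 0.012, *GYPE* 0.071, *HBA2* 0.13, *FAXDC2* 0.18, *UROD* 0.19, *TMTC2* 0.28, *LONRF2* 0.28, *P2RY1* 0.29, *HBA1* 0.35, *L3MBTL1* 0.37, *HBZ* 0.39, *KLF1* 0.62, *PPOX* 0.63, *CXXC5* 0.66, *BTG2* 0.66, *HBG1* 0.70, *BAD* 0.74, *LSS* 0.76, *FADS1* 0.81, *UROS* 0.81, *PHGDH* 0.85, *ESPL1* 0.86, *MT-CYB* 0.99, *TET3* 1.03, *GATA1* 1.07, *HCFC1* 1.10, *ACRBP* 1.10, *FEN1* 1.10, *RYBP* 1.11, *GPR161* 1.14, *MT-ND4* 1.16, *TET1* 1.19, *OGT* 1.23, *ASXL1* 1.27, *TFRC* 1.31, *TAL1* 1.32, *GABRQ* 1.33, *BAP1* 1.35, *BEND7* 1.38 and *PPIC* 1.43. With a margin of 0.322 on the log2 scale 11 genes were back and 4 apart with both changes only, and with 2-fold 174 and 158. A 4-fold limit on KO shControl left 729 still apart, 2 back and 2 crossed. Leaving out single libraries gave 8342 to 9118 called genes, 2276 to 2434 at least 2-fold, 1775 to 1946 in KO shControl, 1252 to 1343 still apart, 30 to 51 back (30 without WT shControl replicate 3), 13 to 19 crossed and 13 to 21 apart with both changes only, with *MBD6* at -0.99 to -0.88 and *TET2* at -0.015 to 0.11. Leaving out WT shMBD6 libraries was added after seeing the data. Same-numbered libraries of WT shControl and KO shMBD6 did not deviate together over all genes (correlations -0.032 to -0.003). The other groups were not checked, and a pairing that touches only some genes could be missed. With the replicate as a block 8868 genes were called, 2283 at least 2-fold, 1275 still apart, 43 back, 15 crossed and 15 apart with both changes only. Of the 2-fold KO shControl genes, 8 of 636 under 1 CPM in every group compared had an interval narrower than the margin, 353 of 676 at 1 to 5 CPM and 534 of 550 above, so that few low genes could be classed as back. Over all alternatives 2207 values of named genes counted as unchanged, 28 lost and 11 gained a call, and 40 reversed, all with ERCC scaling. A change of sign in a gene called in neither fit counted as unchanged. *MBD6* and *TET2* were counted apart, and *MBD6* also reversed with ERCC scaling.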
